A study of Mus musculus with 15 samples.

Results

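The aryl hydrocarbon receptor (AHR) and the genes through which its activity is usually read were followed across 5 groups of tumour sphere cultures. The 8 genes were Ahr, Arnt, Ahrr, Tiparp, Cyp1a1, Cyp1b1, Aldh3a1 and Nqo1, out of 18193 genes on the array. They were taken by name from a list of pathway genes, through the 17 probe sets annotated to exactly 1 of them. Primary mammary tumour cells of FVB/N mice with the MMTV-PyMT transgene, in which the mouse mammary tumour virus promoter drives the polyoma middle T oncogene, had been grown without serum or attachment as mammospheres. After 10 days the spheres received vehicle or 1 inhibitor for another 2 days, and whole-sphere RNA was hybridised to Affymetrix arrays. The 5 groups, all of the same strain and transgene, were vehicle, DAPT (against Notch), U0126 (against MEK1), TAE226 (against focal adhesion kinase, FAK) and PP2 (against Src), with 3 arrays each. The sources used here give no doses and neither the age nor the number of the mice, and the numbers that the labels give the arrays follow the groups, so array order and treatment cannot be told apart.

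AHR is a transcription factor of the bHLH-PAS family that waits in the cytosol with chaperones until it binds a ligand, such as a dioxin, a plant indole or a product of tryptophan. It then moves to the nucleus, pairs with ARNT and binds DNA at a short element whose core is GCGTG, which switches on genes for enzymes that oxidise and clear foreign compounds. AHRR and TIPARP, themselves products of target genes, act back on the receptor as repressors. In mammary epithelium the pathway is best known for CYP1A1 and CYP1B1, which hydroxylate oestrogens and activate polycyclic carcinogens. Receptor protein, its place in the cell and ligand binding were not measured here.

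The stretch of 250 bases before the start site was taken from RefSeq on build GRCm38.p6 for the members it held, 6 of 8, to show where the core element lies. Ahr and Aldh3a1 had no entry. The sequences below are those of the genes whose RNA moved most and of Ahrr, 5′ to 3′ on the gene's own strand, with each GCGTG, or its complement CACGC where the element lies on the opposite strand, in capitals. They lie at chr9:57697363-57697612 on the plus strand for Cyp1a1, chr17:79715062-79715311 on the minus strand for Cyp1b1, chr3:65528197-65528446 on the plus strand for Tiparp, chr8:107403206-107403455 on the minus strand for Nqo1 and chr13:74292332-74292581 on the minus strand for Ahrr.
Cyp1a1: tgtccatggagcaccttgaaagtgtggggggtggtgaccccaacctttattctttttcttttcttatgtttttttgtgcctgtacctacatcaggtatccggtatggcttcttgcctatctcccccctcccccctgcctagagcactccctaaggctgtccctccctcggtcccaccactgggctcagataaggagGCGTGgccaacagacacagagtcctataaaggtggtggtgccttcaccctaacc
Cyp1b1: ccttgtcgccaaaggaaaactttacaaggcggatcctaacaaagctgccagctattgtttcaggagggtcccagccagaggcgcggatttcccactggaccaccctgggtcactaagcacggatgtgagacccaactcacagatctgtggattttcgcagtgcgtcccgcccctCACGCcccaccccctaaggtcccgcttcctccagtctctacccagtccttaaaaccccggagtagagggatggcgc
Tiparp: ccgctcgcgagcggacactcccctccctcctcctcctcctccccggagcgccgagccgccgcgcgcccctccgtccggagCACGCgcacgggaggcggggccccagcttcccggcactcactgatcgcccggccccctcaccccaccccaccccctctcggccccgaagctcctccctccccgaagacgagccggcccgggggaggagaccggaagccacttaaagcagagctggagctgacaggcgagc
Nqo1: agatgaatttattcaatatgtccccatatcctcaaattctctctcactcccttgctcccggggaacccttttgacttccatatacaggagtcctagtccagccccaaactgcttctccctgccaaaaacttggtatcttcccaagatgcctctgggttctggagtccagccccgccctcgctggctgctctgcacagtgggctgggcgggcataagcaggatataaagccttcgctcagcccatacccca
Ahrr: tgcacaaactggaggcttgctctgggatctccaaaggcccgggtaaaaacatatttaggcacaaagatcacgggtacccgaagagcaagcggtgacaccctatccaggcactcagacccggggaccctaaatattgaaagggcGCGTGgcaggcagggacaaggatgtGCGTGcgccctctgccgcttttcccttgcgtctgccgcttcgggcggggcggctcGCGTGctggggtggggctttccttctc
The Cyp1a1 window holds 1 GCGTG on the gene's strand, 54 bases before the start. Cyp1b1 holds 1 on the opposite strand at 76 bases and Tiparp 1 on the opposite strand at 170 bases. Nqo1 holds none in this window. Ahrr holds 3, at 107, 82 and 27 bases, of which 1 lies within the longer form TNGCGTG. The Arnt window, not printed, holds 1, at 29 bases, and it is the only member window with TGACNNNGC, the core of the antioxidant response element to which NRF2 binds, with 2 matches. Both strands were searched, and every TNGCGTG contains a GCGTG. Over the 32851 windows of this length in the table, 28.2% hold GCGTG, 4.1% hold TNGCGTG and 10.2% hold TGACNNNGC, so a match is common and only describes the letters.

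Under the MEK1 inhibitor U0126, RNA of 5 of the 7 members that could be tested rose, namely Aldh3a1, Cyp1b1, Cyp1a1, Nqo1 and Tiparp, and RNA of the receptor itself fell. Of all genes tested, 19.5% were called higher under U0126 and 21.4% lower. Cyp1a1 was bright enough to be tested only on the U0126 arrays, so it had to differ there. Without it, U0126 raised 4 of 6 members. Against the same vehicle arrays, DAPT, TAE226 and PP2 raised Cyp1b1 and Aldh3a1 by 1.92-fold to 4.09-fold. TAE226 and PP2 lowered Nqo1, and PP2 lowered Tiparp, both of which U0126 raised. TAE226 lowered Tiparp on 1 of its 3 probe sets. The values are MAS5 signals, a linear intensity that the authors had scaled to the same trimmed mean on each array. Changes are differences of mean log2 signal, and adjusted p-values come from limma fitted to the 11412 genes tested, with 0.05 as the threshold. Since RNA came from whole spheres, fewer cells of a type and less RNA per cell cannot be told apart.

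**Figure D1:**
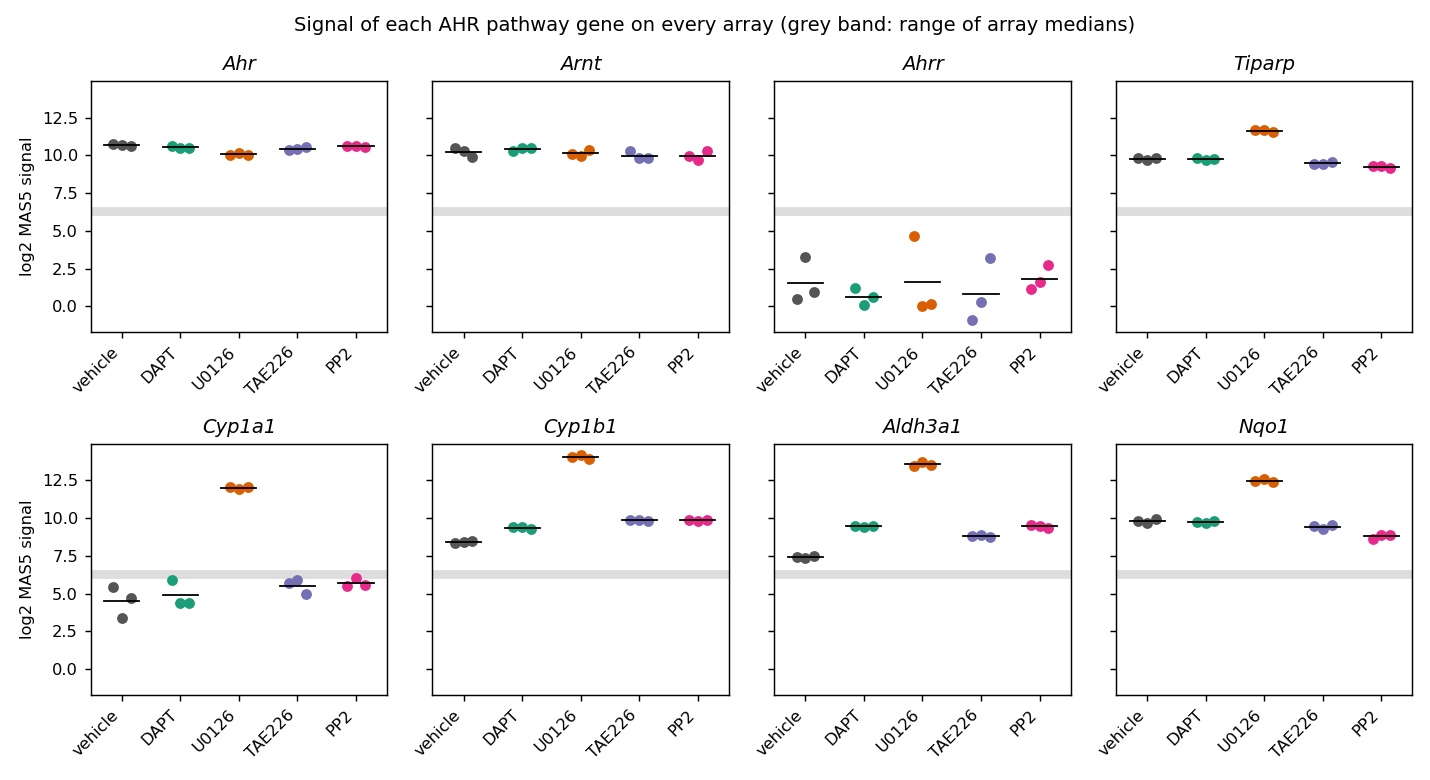
Log2 MAS5 signal of each gene's main probe set (y axis) on the 3 arrays of each group (points; line, group mean), with the range of array medians, 65.7 to 90.8 in signal, as a grey band. Cyp1a1 lies above the band in the U0126 group only, Ahrr lies below it on every array, and the U0126 arrays of Tiparp, Cyp1b1, Aldh3a1 and Nqo1 lie above all others.

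The receptor gene Ahr had signals of 1735, 1648 and 1552 under vehicle. They were 1593, 1442 and 1443 under DAPT, 1319, 1397 and 1474 under TAE226, and 1610, 1572 and 1485 under PP2. The 3 U0126 arrays, at 1021, 1171 and 1037, were the lowest of the 15 and overlapped with no other group. Ahr fell under U0126 to 65.4% of vehicle, a log2 change of −0.61 (SE 0.07, adjusted p = 2.05e-06). It also fell under TAE226, by less (−0.24, adjusted p = 0.0154), and that call was lost without vehicle replicate 1 (adjusted p = 0.0734) or without TAE226 replicate 1 (adjusted p = 0.0698). DAPT (−0.14, 95% interval −0.29 to 0.01, adjusted p = 0.132) and PP2 (−0.08, interval −0.23 to 0.07, adjusted p = 0.352) did not pass the threshold. With every array centred on its median instead, Ahr passed it under PP2 too (−0.3, adjusted p = 0.0252). In the order of levels, vehicle, PP2, DAPT and TAE226 followed each other without a step that passed the threshold, and U0126 came last, 0.38 below TAE226 on the log2 scale (adjusted p = 0.000421). That last step did not pass with median centring (adjusted p = 0.15). A second Ahr probe set lay near the array median, with signals from 44.1 to 125, and passed the threshold against vehicle in no group: its change was 0.02 under U0126 (adjusted p = 0.961) and 0.62 under PP2 (adjusted p = 0.0597).

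Arnt encodes the partner that AHR shares with the hypoxia factors. Its signals were 1429, 1276 and 953 under vehicle, 1282, 1405 and 1435 under DAPT, and 1109, 985 and 1340 under U0126. They were 1222, 890 and 932 under TAE226 and 984, 846 and 1272 under PP2. Each inhibitor group overlapped with vehicle, and Arnt was the only tested member that did not pass the F-test over the 5 groups (adjusted p = 0.0947). Its change under U0126 was −0.08 (95% interval −0.43 to 0.26, adjusted p = 0.73), an interval that leaves room for changes of those sizes. In the order DAPT, vehicle, U0126, PP2 and TAE226 no neighbours differed past the threshold. PP2 lay below DAPT in the fit (−0.43, adjusted p = 0.0452), a call that was lost on leaving out any 1 of the DAPT arrays, PP2 replicate 1 or 2, vehicle replicate 2, U0126 replicate 1 or TAE226 replicate 3 (adjusted p from 0.0506 to 0.206). TAE226 also lay below DAPT with no overlap, but did not pass (−0.45, adjusted p = 0.0563), while 8 of 24 alternative fits called it. Of the 4 other Arnt probe sets, 1 was dim on all arrays. A dimmer one, which had signals from 369 to 473 under TAE226 and from 581 to 773 under vehicle, fell under TAE226 (−0.66, adjusted p = 0.00177 over 21323 probe sets), while the main one did not pass (−0.26, adjusted p = 0.248). With median centring the main Arnt probe set passed under TAE226 (−0.51, adjusted p = 0.0305) and under PP2 (−0.46, adjusted p = 0.0453).

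Ahrr encodes the AHR repressor, which competes with AHR for ARNT and is a target gene in many tissues. Its only probe set was below the array median on all 15 arrays, so it was not tested. Signals ran from 1.39 to 9.69 under vehicle, from 1.06 to 2.32 under DAPT, from 1.01 to 25.3 under U0126, from 0.525 to 9.06 under TAE226 and from 2.23 to 6.68 under PP2. The highest value, 25.3, was 1 of the 3 U0126 arrays, and the other two stood at 1.01 and 1.13. At these signals the array does not resolve the gene, and no change of Ahrr can be given in any group.

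Tiparp encodes an ADP-ribosyltransferase that modifies AHR and shortens its activity. Its signals were 917, 827 and 911 under vehicle, 899, 819 and 858 under DAPT, 705, 706 and 750 under TAE226 and 635, 627 and 583 under PP2. With U0126 they were 3241, 3233 and 3040, above every other array. Tiparp rose 3.59-fold under U0126 (log2 change 1.84, SE 0.06, adjusted p = 5.32e-13). It fell under PP2 to 69.5% of vehicle (−0.52, SE 0.06, adjusted p = 2.58e-06), and DAPT did not pass the threshold (−0.04, 95% interval −0.18 to 0.09, adjusted p = 0.64). A fall under TAE226 (−0.3, adjusted p = 0.00184) depended on the probe set: the other two gave 0.09 (adjusted p = 0.361) and −0.11 (adjusted p = 0.304). On those 2 probe sets the rise under U0126 was 2.17 and 2.09, and the fall under PP2 was −0.29 (adjusted p = 0.00174) and −0.38 (adjusted p = 0.000495), so these calls held on all 3. PP2 lay below TAE226 on the main probe set (−0.23, adjusted p = 0.00758), but not past the threshold with median centring (adjusted p = 0.101).

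Cyp1a1 encodes the cytochrome P450 whose induction is the classical readout of an active receptor. Its signals were 43.1, 10.5 and 26.7 under vehicle, 60.3, 21.3 and 20.5 under DAPT, 51.6, 59.1 and 30.9 under TAE226 and 45.8, 65.8 and 46.9 under PP2. All of these lay below the median of their array. Under U0126 the signals were 4345, 3956 and 4195. Cyp1a1 therefore entered the test only through the 3 U0126 arrays, and its rise is given as a bound: at least 56.9-fold over vehicle (adjusted p = 7.75e-10), taking each dim array at its median. Against DAPT, TAE226 and PP2 the bounds were 51.9-fold, 47.7-fold and 48.9-fold. The fit also called PP2 higher than vehicle (adjusted p = 0.0374), but both groups were dim, so no fold is given. That call was lost without vehicle replicate 2, whose signal was 10.5 (adjusted p = 0.226), and without any 1 of the U0126 or PP2 arrays (adjusted p from 0.0506 to 0.117). DAPT (adjusted p = 0.57) and TAE226 (adjusted p = 0.113) did not pass.

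Cyp1b1 encodes the related enzyme that is more broadly expressed outside the liver and makes 4-hydroxylated oestrogens. Its signals were 324, 345 and 357 under vehicle and 694, 666 and 611 under DAPT. They were 925, 952 and 917 under TAE226, 923, 907 and 936 under PP2, and 16982, 18400 and 15552 under U0126. All 4 inhibitor groups lay above the vehicle arrays with no overlap. U0126 raised Cyp1b1 49.6-fold (log2 change 5.63, SE 0.07, adjusted p = 4.78e-19). TAE226 raised it 2.73-fold (1.45, adjusted p = 1.39e-10), PP2 2.7-fold (1.43, adjusted p = 1.96e-11) and DAPT 1.92-fold (0.94, adjusted p = 1.1e-08). PP2 and TAE226 differed by −0.01 (95% interval −0.16 to 0.13, adjusted p = 0.883), an interval that leaves room for a small difference either way. Both lay above DAPT, PP2 by 0.49 (adjusted p = 1.84e-05) and TAE226 by 0.51 (adjusted p = 2.66e-05). U0126 exceeded DAPT by 4.69, TAE226 by 4.18 and PP2 by 4.2 on the log2 scale. A second probe set gave changes of 6.33, 1.35, 1.32 and 0.9 in the same order of inhibitors, U0126, TAE226, PP2 and DAPT. The remaining probe set was dim on all arrays, with signals from 3.04 to 54.

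Aldh3a1 encodes an aldehyde dehydrogenase that belongs to the AHR gene battery and is abundant in cornea and in many induced epithelia. Its signals were 172, 165 and 177 under vehicle, 451, 464 and 429 under TAE226, 712, 681 and 705 under DAPT and 755, 703 and 641 under PP2. With U0126 they were 11451, 13549 and 11616. No inhibitor array reached down to the vehicle arrays. The rise was 71.1-fold under U0126 (log2 change 6.15, SE 0.08, adjusted p = 4.78e-19), 4.09-fold under DAPT (2.03, adjusted p = 3.93e-12), 4.08-fold under PP2 (2.03, adjusted p = 1.52e-12) and 2.62-fold under TAE226 (1.39, adjusted p = 9.16e-10). PP2 and DAPT gave the same mean, with a 95% interval of −0.16 to 0.16 for their difference (adjusted p = 0.99). TAE226 lay below PP2 (the difference was 0.64, adjusted p = 2.82e-06) and below DAPT (−0.64, adjusted p = 7.45e-06). The order of the inhibitors after U0126 was thus not that of Cyp1b1, where TAE226 and PP2 shared the place above DAPT.

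Nqo1 encodes a quinone reductase that is a target of NRF2 as well as of AHR. Its signals were 895, 816 and 991 under vehicle, 874, 808 and 879 under DAPT, 704, 624 and 727 under TAE226 and 400, 472 and 469 under PP2. Under U0126 they were 5565, 6130 and 5374. Nqo1 rose 6.33-fold under U0126 (log2 change 2.66, SE 0.09, adjusted p = 3.03e-13). It fell under PP2 to 49.7% of vehicle (−1.01, SE 0.09, adjusted p = 4.59e-08) and under TAE226 to 76.2% (−0.39, adjusted p = 0.00243), in both with no overlap with vehicle. DAPT did not pass (−0.07, 95% interval −0.26 to 0.11, adjusted p = 0.557). Between the extremes, U0126 and PP2, the difference was 12.7-fold (3.67, adjusted p = 2.86e-15). PP2 lay below TAE226 (−0.62, adjusted p = 2.1e-05), and TAE226 below DAPT (−0.32, adjusted p = 0.0131), the last lost without TAE226 replicate 2 (adjusted p = 0.0773).

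**Figure D2:**
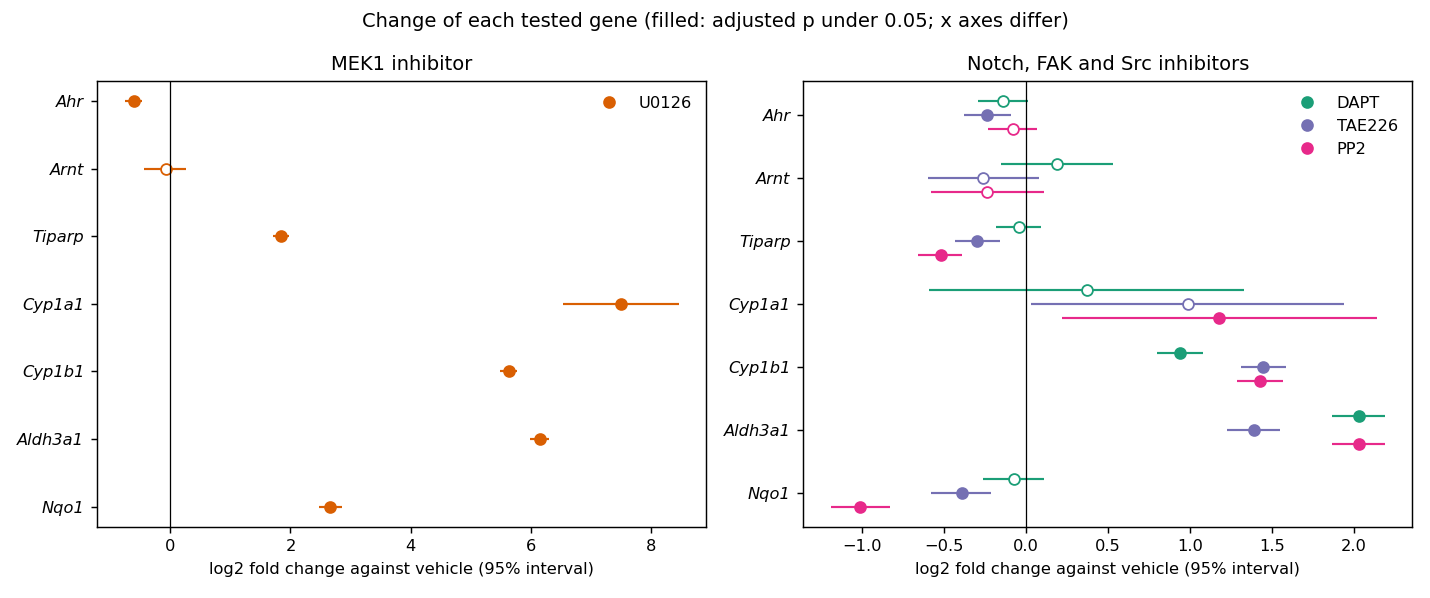
Log2 fold change against vehicle (x axis, with 95% intervals; filled points, adjusted p under 0.05) of the 7 tested genes, with U0126 on the left and the other inhibitors on the right on a finer axis. Cyp1b1 and Aldh3a1 lie to the right of 0 under every inhibitor, Tiparp and Nqo1 lie right of it under U0126 and left of it under TAE226 and PP2, and the filled Cyp1a1 point for PP2 compares groups that were both dim.

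Counted over the 7 tested members, U0126 raised 5 and lowered 1, against 19.5% of all tested genes called higher and 21.4% lower. The members were chosen with earlier results of these data known, so such shares are a background and not a test. Cyp1a1 is 1 of the 7 and of the 5, and since it passed the filter only through the U0126 arrays it had to differ there. Over the 6 members that were above the median on all arrays, U0126 raised 4 and lowered 1. DAPT raised 2 and lowered 0 in the limma fit, also 0 at an unadjusted p under 0.05, with backgrounds of 17.1% and 17.5%. On their main probe sets the arrays of the 5 other tested members overlapped with vehicle under DAPT, and the share of all genes that overlapped was not counted. On another Tiparp probe set DAPT (824, 833 and 831) lay above vehicle (787, 758 and 697) without passing (0.15, adjusted p = 0.1). TAE226 raised 2 and lowered 3, with backgrounds of 15.2% and 15.9%. PP2 raised 2 of these 6 and lowered 2, with backgrounds of 26.1% and 26.7%. The fit counts Cyp1a1, dim in both groups, as a further rise under PP2. The median change of the 6 members was 0.07 under DAPT, 2.25 under U0126, −0.25 under TAE226 and −0.16 under PP2, where that of all genes tested was between 0.001 and 0.02. These comparisons share the vehicle arrays. In the F-test 6 of 7 members differed among the groups, as did 73.2% of all genes.

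Set directly against each other inhibitor, U0126 was higher for the same 5 genes and lower for Ahr. That made 6 members called against DAPT (44.7% of all genes), against TAE226 (37.2%) and against PP2 (55.9%). Cyp1a1 is 1 of them and, having passed the filter only through the U0126 arrays, had to differ here too. The Ahr call against TAE226 was lost with median centring (adjusted p = 0.15). Over the 6 members above the median on all arrays, U0126 was higher for 4 and lower for 1 against each inhibitor. PP2 and DAPT differed in 4 members (39.7% of all genes): Cyp1b1 was higher under PP2, and Tiparp, Nqo1 and Arnt were lower. The Arnt call was lost in 13 of 24 alternative fits. PP2 and TAE226 differed in 3 (43.6%), with Aldh3a1 higher and Tiparp and Nqo1 lower under PP2. TAE226 and DAPT differed in 4 (22.6%), with Cyp1b1 higher and Aldh3a1, Tiparp and Nqo1 lower under TAE226. Here Tiparp passed on its main probe set only, and the others gave −0.07 (adjusted p = 0.569) and −0.1 (adjusted p = 0.444). In the last 3 pairs the members' share of calls can be read against backgrounds of that size only.

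MAS5 fixes each array's trimmed mean and not its median, which matters for the small changes. Centring each array on its median shifted all log2 changes against vehicle by −0.13 for DAPT, −0.08 for U0126, −0.25 for TAE226 and −0.22 for PP2. The genes called higher and lower were 1950 and 1998 for DAPT before centring and 689 and 2444 after it. They were 2222 and 2441, then 1211 and 2424, for U0126, 1732 and 1816, then 428 and 4241, for TAE226, and 2978 and 3052, then 1210 and 4331, for PP2. Cyp1b1 and Aldh3a1 stayed called higher under every inhibitor on either scale. Nqo1 and the main probe set of Tiparp stayed called lower under TAE226 and PP2. Since centring shifted all changes downward, this is no check of a fall.

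Among the 10062 genes brighter than the median of each of the 6 vehicle and U0126 arrays, Aldh3a1 had the 2nd and Cyp1b1 the 3rd largest rise under U0126. Mal (6.45) stood above them and Sox11 (4.47) below. Nqo1 was 18th and Tiparp 41st among the rises, and Ahr was 504th among the falls. Cyp1a1 was not ranked, being dim under vehicle.

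**Figure D3:**
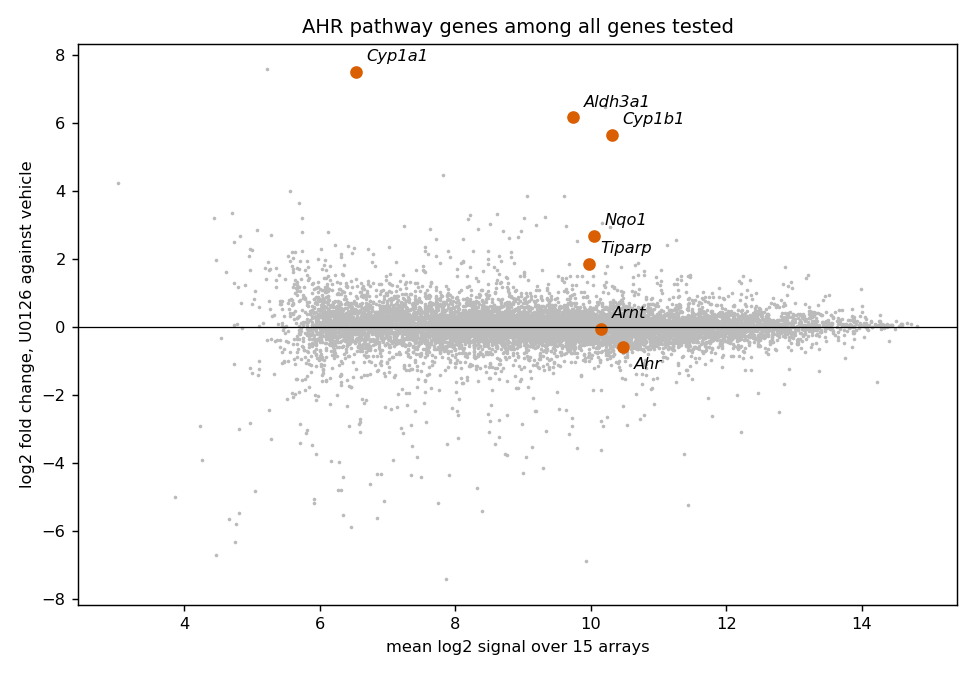
Log2 fold change of U0126 against vehicle (y axis) against mean log2 signal over the 15 arrays (x axis) for the 11412 genes tested, with the 7 tested AHR pathway genes in orange. Aldh3a1 (6.15) and Cyp1b1 (5.63) stand apart from the genes of like mean signal, while Arnt (−0.08) lies within them and Ahr (−0.61) at their lower side.

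Genes with more than 1 probe set gave a check of these values within the array. Tiparp and Cyp1b1 moved the same way on every tested probe set under U0126 and PP2, while the second Ahr probe set, near the array median, did not follow the main one. The Arnt probe sets differed in which of them passed the threshold. Of the 17 member probe sets, 14 were tested.

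**Figure D4:**
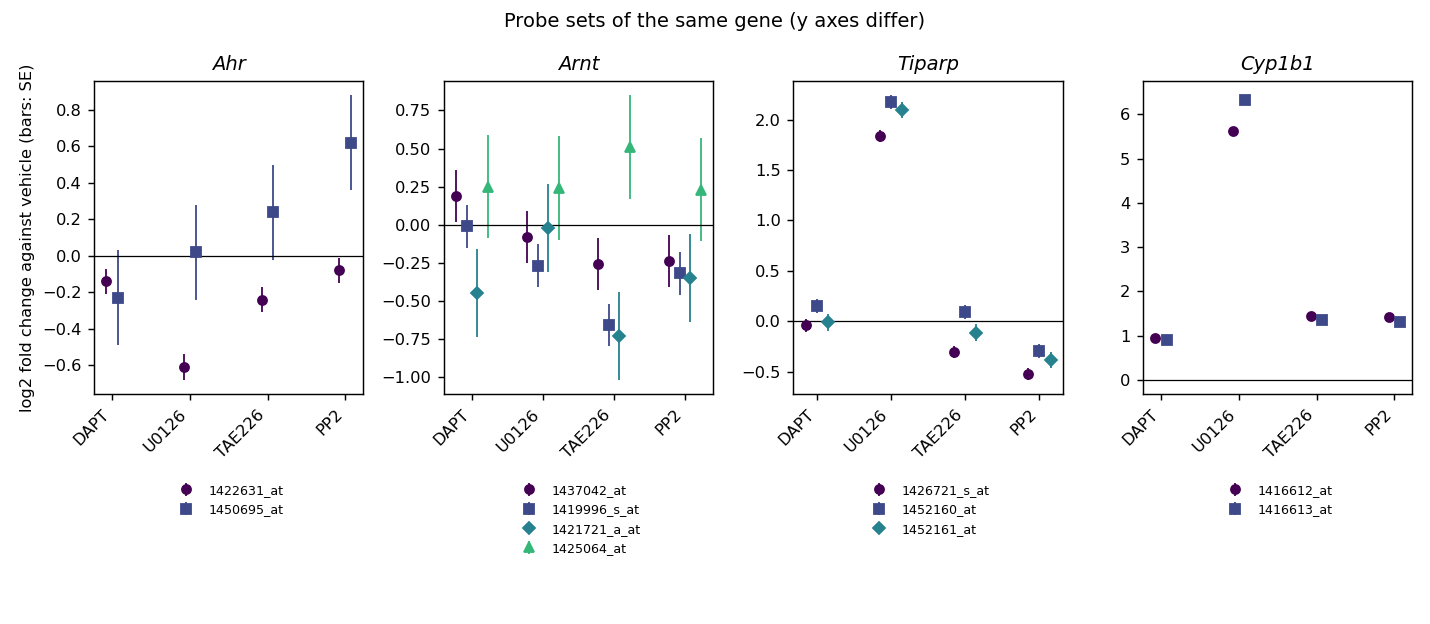
Log2 fold change against vehicle (y axis, scales differ; bars, SE of the limma fit) of each tested probe set of the 4 genes with more than 1, by inhibitor. The probe sets of Tiparp (1.84, 2.17 and 2.09) and Cyp1b1 (5.63 and 6.33) lie together under U0126, while those of Ahr (−0.61 and 0.02) lie apart.

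Markers of the cells that a tumour sphere could hold were read beside these results. All 6 epithelial markers were above the median on every array of every group, with a summed signal of 63709 to 66352 under vehicle and 60711 to 68333 under U0126. Of 7 fibroblast markers, 5 or 6 were above the median on no array in each group, with a summed signal of 178 to 277 under vehicle and 202 to 348 under U0126. Of 7 macrophage and leukocyte markers, 4 or 5 were above it on no array in each group. Among these, Csf1r was above the median on 11 of the 15 arrays and Adgre1 on 7. Of 4 endothelial markers only Kdr was above it on any, on 6 arrays, and the 2 measured adipocyte markers were above it on none. The summed signal of 5 basal markers was 12522 to 14012 under vehicle, 17031 to 19282 under U0126 and 17878 to 18043 under DAPT. TAE226 had 11916 to 12603 and PP2 8847 to 9590. The higher sum under U0126 is carried by the bright Krt14, and single markers went both ways there. The mean log2 signal under U0126 was above vehicle for Krt14 (13.86 and 13.28) and Oxtr (10.57 and 8.98). It was below vehicle for Krt5 (9.22 and 9.44), Trp63 (10.29 and 10.95) and Acta2 (6.29 and 6.46). Under DAPT, Krt14 was below vehicle (13.19 and 13.28). Krt5 (10.39 and 9.44), Trp63 (12.09 and 10.95), Acta2 (6.79 and 6.46) and Oxtr (11.44 and 8.98) were above it under DAPT. The part of basal cells in the members' changes was not tested. The ratio of 3′ to 5′ actin signal, a sign of RNA quality, was 1.42 ± 0.06 under vehicle, 1.28 ± 0.07 under U0126 and 1.57 ± 0.04 under PP2 (SD, n = 3), and its part was not tested.

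Other genes of the pathway were read from lists of partners, coactivators and targets, also chosen with earlier results of these data known. The cytosolic complex holds AHR until a ligand arrives. Of its 5 listed genes 2 were measured, and Hsp90aa1, a chaperone, rose under U0126 (0.32, adjusted p = 0.00909) while Src, a kinase that is bound there, rose under PP2 (0.51, adjusted p = 0.00696). Neither call held with median centring, and no other was made against vehicle. Of the 7 bHLH-PAS genes that pair with ARNT, or resemble it, 4 were tested. Hif1a, the hypoxia factor, fell in each group, by −0.24 under DAPT (adjusted p = 0.00212), −0.21 under U0126 (adjusted p = 0.00465), −0.61 under TAE226 (adjusted p = 1.98e-07) and −0.56 under PP2 (adjusted p = 1.63e-07). Epas1, its relative, rose under U0126 (0.88, adjusted p = 8.02e-10) and DAPT (0.32, adjusted p = 0.000166), the latter lost with median centring (0.19, adjusted p = 0.208).

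All 8 listed coactivators, proteins that AHR and many other factors recruit to open chromatin and start transcription, were tested. Under U0126, with 19.5% of all genes called higher and 21.4% lower, 1 was called, Ncoa2, which fell (−0.27, adjusted p = 0.0137). PP2 raised 7 (26.1% of all genes), led by Nrip1 (0.82, adjusted p = 7.76e-10) and Ncoa3 (0.71, adjusted p = 2.37e-06), and DAPT raised 6 (17.1%), led by Ncoa3 (0.66, adjusted p = 1.45e-05). TAE226 raised 2 (15.2%), Ep300 (0.38, adjusted p = 0.00179) and Ncoa3 (0.31, adjusted p = 0.0104). These small rises rest on the scale: with median centring PP2 raised 2 and lowered 1, DAPT raised 1, and both calls for TAE226 were lost. On that scale PP2 had 1210 of all 11412 genes higher and 4331 lower, and DAPT had 689 higher. The 3 genes for turnover and export of AHR moved in mixed directions. Xpo1, the nuclear exporter, fell under PP2 (−0.69, adjusted p = 9.98e-07), TAE226 (−0.31, adjusted p = 0.00499) and DAPT (−0.22, adjusted p = 0.0319). Stub1, a ubiquitin ligase, fell under DAPT (−0.27, adjusted p = 0.00777). It rose under U0126 (0.2, adjusted p = 0.0346), which was lost with median centring (0.12, adjusted p = 0.469).

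Of 16 further genes named as AHR targets in other tissues, 12 were measured and 9 tested. Under U0126, 3 rose and 4 fell (19.5% and 21.4% of all genes), with a median of −0.59 where all genes had 0. Ptgs2, the inducible cyclooxygenase, rose (1.26, adjusted p = 1.67e-09). Xdh, a xanthine dehydrogenase, fell (−1.1, adjusted p = 9.43e-09), as did Stc2, a secreted glycoprotein (−1.19, adjusted p = 9.57e-06). Scin, an actin-severing protein, fell to dim, at least 1.88-fold (adjusted p = 0.000175). Under DAPT 2 rose and 4 fell (17.1% and 17.5% of all genes), under TAE226 1 rose and 4 fell (15.2% and 15.9%), and under PP2 4 rose and 4 fell (26.1% and 26.7%), 1 of the last, Serpinb2, being dim in both groups. With median centring 2 rose and 4 fell under U0126, 1 rose and 5 fell under DAPT, 5 fell and none rose under TAE226, and 2 rose and 5 fell under PP2. Among all 11412 genes, centring gave 1211 higher and 2424 lower under U0126, and 689 and 2444 under DAPT. Under TAE226 it gave 428 and 4241, and under PP2 1210 and 4331. Stc2 fell under DAPT (−1.92), TAE226 (−2.57) and PP2 (−2.44), and Xdh rose under DAPT (1.05) and PP2 (1.11). The targets Cyp2s1, Cyp2a5 and Ido1 were among the genes not tested.

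Enzymes that turn tryptophan into AHR ligands were mostly dim: 11 were measured and 3 tested, and Ido1, Ido2, Tdo2 and Il4i1, which open the pathway, did not reach the filter. Kyat1, an aminotransferase of kynurenine, fell under U0126 (−0.81, adjusted p = 0.00032). Kyat3, of the same kind, fell under PP2 (−0.67, adjusted p = 4.5e-05), TAE226 (−0.45, adjusted p = 0.0037) and DAPT (−0.3, adjusted p = 0.0349). Kyat1 rose under PP2 (0.39, adjusted p = 0.0352), a call lost with median centring (0.17, adjusted p = 0.449).

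Nqo1 belongs to the genes that NRF2 switches on against oxidants, so that list was read beside it. Of 8 tested members, Nqo1 not among them, U0126 raised all 8 (19.5% of all genes), with a median of 0.86. The greatest rises were those of Gsta4 (3.05, adjusted p = 1.18e-15), a glutathione transferase, and Gclc (1.29, adjusted p = 3.78e-12), the rate-limiting enzyme of glutathione synthesis. With median centring 6 were called, all higher (1211 of all 11412 genes were higher). PP2, under which Nqo1 fell, raised 6 (26.1% of all genes) and lowered 1 (26.7%), Hmox1 (−0.63, adjusted p = 0.00379), while Gsta4 rose (0.93, adjusted p = 2.77e-09). With median centring PP2 raised 2 and lowered 1 (1210 and 4331 of all 11412 genes). DAPT raised 5 (17.1%), and TAE226 raised 5 (15.2%) and lowered 1 (15.9%). With median centring DAPT raised 3 (689 of all 11412 genes), and TAE226 raised 2 and lowered 1 (428 and 4241). Of the 3 measured microsomal partners of the CYP1 enzymes, DAPT and TAE226 raised 3 each (17.1% and 15.2% of all genes). U0126 and PP2 raised 2 each (19.5% and 26.1%). With median centring DAPT raised 1 (689 of all 11412 genes), U0126 1 (1211) and PP2 2 (1210), and the calls for TAE226 were lost. Cyb5a, an electron donor, rose under PP2 (0.77, adjusted p = 3.24e-09) and U0126 (0.58, adjusted p = 1.75e-07), and Cyb5r3, its reductase, under DAPT (0.73, adjusted p = 6.47e-08).

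The genes whose log2 signals ran most like the mean of standardised Cyp1a1 and Cyp1b1 over the 15 arrays were 1190005I06Rik (Pearson r = 0.981), Vim (0.979), Wnk1 (0.974), Gsta4 (0.971), Adam8 (0.967) and Babam2 (0.962). Those most like Ahr were A430005L14Rik (0.94), Cd14 (0.938), 4930431P03Rik (0.932) and Ppp1ca (0.931). The arrays share their groups and the U0126 arrays set much of this likeness. Over the 12 arrays without U0126, r was 0.773 for 1190005I06Rik, 0.827 for Vim and 0.583 for Gsta4, and 0.756 for Cd14. Cyp1a1 was dim on these 12 arrays, so the first of these values rest in part on its signals below the median. Vim, an intermediate filament protein, rose under U0126 by 1.13 (adjusted p = 1.87e-10), and Cd14, a co-receptor for lipopolysaccharide, fell by 2.51 (adjusted p = 8.09e-16).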

How the data were processed

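RNA of 15 mammosphere cultures was hybridised to Mouse430_2 arrays, 3 per group by the treatment labels. The deposited values are linear signal intensities, made with Affymetrix Expression Console and MAS5 per the submitters' processing notes (with no version given there). The mean of each array, trimmed by 2% at each end, was 500. The platform annotation names 1 gene for 34945 of 45101 probe sets. Each of the 18193 genes was read from whichever of its probe sets was brightest on average (log2 intensity), with possible cross-hybridisers (_x_at) last. Genes brighter than the median signal of 3 or more of the 15 arrays were tested. Dim means below the median on all arrays of a group. The bound on a fold then takes each dim array at its median or the gene's own value, whichever was higher.

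Log2 intensities, with no pseudocount, entered a linear model in limma 3.58.1 (R 4.3.3) with 1 coefficient per group and an intensity trend (degrees of freedom: 10 residual, 6.4 prior). Two-sided p-values were adjusted (Benjamini-Hochberg) for the 11412 genes, or over 21323 probe sets where other probe sets are given. Intervals are 95%. The fits were tested on simulated data. Members and lists were chosen with earlier results of these data known. Besides the members, at most 4 called genes with the greatest change per list and comparison, and the genes most like Cyp1a1 and Cyp1b1 or Ahr, could be named, and Mal and Sox11 were named after their values were seen, as the neighbours in rank of Aldh3a1 and Cyp1b1. Arrays of a group differed by a median of 0.096 to 0.149 in absolute log2 value, and arrays of different groups by 0.169 to 0.351. At most 2 probe sets had equal values on a pair of arrays. The labels call replicates biological without saying whether mice or cultures were separate, so the spread behind the p-values may be technical. The number of arrays limits the precision. Alternatives changed the scaling, the pseudocount, the filter, the choice of probe set, the variance trend, the replicate block, the groups in the fit and the replicates.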

Additional observations from a re-analysis of the deposited data

How the results depend on the processing

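Of 1670 results for members under the alternatives, 1611 kept their side of the threshold, and the called ones among them kept their direction. Another 42 lost the call, 16 gained one and 1, called in the main fit, changed its sign. Changes of sign between results that were not called were not counted as reversals. Taking the mean of all probe sets of a gene, dim ones included, moved the most: the members called fell from 2 to 1 for DAPT against vehicle, from 5 to 2 for TAE226 against vehicle, from 5 to 3 for PP2 against vehicle and from 4 to 2 for TAE226 against DAPT. Under it Ahr under TAE226 reversed to 0.0023 (adjusted p = 0.991), and Cyp1b1, 1 of whose 3 probe sets is dim on every array, lost its calls under DAPT (0.12, adjusted p = 0.822), TAE226 (0.63) and PP2 (0.47), though not its direction. Ahr under U0126 lost its call too (−0.29, adjusted p = 0.104). A pseudocount at the median signal over all arrays together lowered the Cyp1a1 change under PP2 to 0.32 (adjusted p = 0.0603). The replicate numbers did not pair the arrays: over 30 pairs with the same number the correlation of deviations ran from −0.238 to 0.2, with a median of 0.008. With the replicate block the members called were 2 for DAPT, 6 for U0126, 5 for TAE226 and 5 for PP2 against vehicle, as without it, and 3 in place of 4 for PP2 against DAPT, where Arnt (−0.43, adjusted p = 0.051) lost its call. Signals near or below the array median, as those of Ahrr, 3 of 5 Arnt probe sets and Cyp1a1 outside the U0126 group, limit what could be tested.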
